A study of Mus musculus with 41 samples.

Results

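Post-tamoxifen Treg cells are regulatory T cells that make Foxp3 but carry no mark of recombination. They were sorted as Foxp3-GFP positive and tdTomato negative, and all 11 libraries of this population were taken by genotype and sort gate from the 41 libraries of the series. 6 libraries came from iUhrf1 fl/fl mice, which carry floxed Uhrf1 alleles, and 5 came from iUhrf1+/+ controls. Mice of both genotypes carried Foxp3 GFP-CreERT2, a fusion of GFP with a tamoxifen-dependent Cre driven by the Foxp3 gene, and a Rosa26 CAG-tdTomato reporter. All were 8 weeks old and had eaten tamoxifen chow for 2 weeks and then standard chow for 4 weeks, so the controls had the drug, the Cre and the reporter too. A tdTomato-negative cell either had no Foxp3-driven Cre activity while the drug was given or kept an unrecombined reporter, and the counts do not tell which. Counts were per whole gene, so they do not show whether the floxed Uhrf1 exons were present. The sources used here name neither the tissue of origin nor the sex of these mice.

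Uhrf1 binds hemimethylated DNA at the replication fork and brings in Dnmt1, which copies methylation onto the new strand. Treg cells hold other T cells in check, and their identity rests on Foxp3 and on demethylated regions at Foxp3 and its target genes. Resting Treg cells circulate through lymphoid tissue with a naive-like programme run by Tcf7, Lef1, Bach2 and Foxp1. Effector Treg cells switch that programme off, divide more, and gain Icos, Tigit, Gzmb, Il10 and tissue receptors. The comparison addresses how Treg cells without the label differ between mice whose labelled Treg cells were exposed to deletion of Uhrf1 and mice with intact Uhrf1.

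Total counts were 1172214 to 2600299 in fl/fl libraries and 781437 to 3153563 in control libraries, with control 1 the shallowest. The 9 detected T cell markers of 10 listed (Cd3e, Cd4, Lck and others), which do not tell Treg cells from ex-Foxp3 cells, summed to 3958 to 5057 CPM in fl/fl libraries and 4200.0 to 4797 CPM in controls. Uhrf1 (mm10, chromosome 17, 56303321 to 56323486, plus strand) was at 151, 124, 156, 18.9, 33.6 and 27.03 CPM in fl/fl libraries 1 to 6, against 59.6, 22.1, 36.5, 17.7 and 13.7 CPM in controls 1 to 5. CPM here are read counts scaled to a common library size with TMM factors. Libraries 1 to 3 of the fl/fl group were the highest of all, libraries 4 to 6 lay among the controls, and the difference did not pass (log2 fold change 1.62 ± 0.64 (SE), adjusted p = 0.113). Foxp3 was at 287, 329, 128, 426, 458 and 447 CPM in fl/fl cells and at 365, 123, 537, 439 and 441 CPM in controls, without a difference beyond the spread (log2 fold change -0.14 ± 0.35 (SE), adjusted p = 0.856). In labeled Treg cells Foxp3 was at 317 to 508 CPM in fl/fl and 388 to 428 CPM in control libraries. In ex-Foxp3 cells, which have lost Foxp3, it was at 13.3 to 113 CPM in fl/fl and 79.4 to 151 CPM in control libraries. Fl/fl library 3 and control 2 lay below every labeled library and within the control ex-Foxp3 range, so the Foxp3 level of these 2 of the 11 libraries goes against their sort label. Il2ra, the high-affinity interleukin-2 receptor chain, was lowest in the same libraries, at 514, 593, 282, 628, 633 and 714 CPM in fl/fl cells and 544, 214, 944, 824 and 722 CPM in controls (-0.22 ± 0.23, adjusted p = 0.612). Y-linked transcripts (Ddx3y, Eif2s3y, Kdm5d and Uty) summed to 419 and 455 CPM in controls 2 and 3 and to 0 in the other 9 libraries. Y-linked reads were thus found in controls only, so sex by this measure was not balanced between the genotypes.

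Control 2 stood apart. Over 35 genes that differed between labeled Treg cells and ex-Foxp3 cells of the other sorted populations of control mice, each library was placed on a scale from 0 (the labeled mean) to 1 (the ex-Foxp3 mean). The fl/fl libraries 1 to 6 lay at -0.0083, -0.049, 0.30, 0.20, -0.024 and 0.17, and the controls 1 to 5 at 0.60, 0.89, 0.28, 0.45 and 0.51. Control 2 was thus close to ex-Foxp3 cells, while fl/fl 1, 2 and 5 lay near the labeled mean, and fl/fl 3 was the highest of its group, just above control 3. Counts of called list members over the 11 libraries are therefore also given without control 2. Markers of other cells were present as well. The B and plasma cell list (16 of 17 in the table, with Cd79a, Ms4a1 and Pax5 among those at 0 in some library of each genotype) summed to 1423, 546, 962, 116, 106 and 106 CPM in fl/fl libraries, against 594, 34.6, 173, 159.8 and 273 CPM in controls. The myeloid list (19 of 20) summed to 1039, 821, 2094, 447, 632 and 505 CPM in fl/fl libraries, against 1557, 372, 666, 665 and 842 CPM in controls. Fl/fl 1 to 3 and control 1 held the 4 highest B and plasma cell sums, and the same libraries with control 5 the 5 highest myeloid sums. Igj, a member of the B and plasma cell list, gave 484, 133 and 134 CPM of the sums in fl/fl 1 to 3 and at most 19.5 CPM in controls. In labeled and ex-Foxp3 cells of both genotypes the B and plasma cell sums stayed within 21 to 122 CPM and the myeloid sums within 258 to 417 CPM. Much of the low myeloid sums was Ctss, at 266 to 395 CPM in fl/fl and 216 to 339 CPM in control libraries here. Labeled cells held Ctss at 217 to 292 CPM in fl/fl and 241 to 326 CPM in control libraries, so low myeloid sums do not by themselves show myeloid cells.

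Uhrf1 fl/fl and control mice were compared across all genes in these unlabeled cells. Of 9921 genes tested, 717 were called at an adjusted p under 0.05 (7.23%), 387 higher in fl/fl cells (3.90%) and 330 lower (3.33%). Effector Treg genes and guanylate-binding protein genes were among those higher, and transcription factors of naive T cells were among those lower. The groups did not overlap in CPM at 308 genes (3.10%), 140 higher (1.41%) and 168 lower (1.69%). Without control 2 the count was 907 (9.05%), 562 higher (5.61%) and 345 lower (3.44%), and 607 of the 717 genes were among them. Without control 2 and fl/fl 3, the 2 libraries low in Foxp3, it was 626 (6.27%), 408 higher (4.08%) and 218 lower (2.18%). All 717 genes kept their sign in both of these fits, which share most libraries with the fit that picked the genes, so this is partly built in. Without both libraries 19 of 31 effector Treg genes and 9 of 30 Treg core genes were called higher, 5 of 24 naive and central T cell genes lower, 5 of 44 interferon-stimulated genes higher and 1 lower. In the same fit 0 of 54 G2/M, 0 of 51 S phase and 1 of 44 histone genes were called higher, as were 5 of 20 glycolysis, 2 of 52 respiratory chain and 3 of 34 proteasome genes. The median log2 fold change of all genes tested was 0.0083, with a common biological coefficient of variation of 0.215.

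The count of called genes differed widely between fits, and why was not tested. The fit held all 33 libraries of the 3 sorted populations, and a fit of the 11 post-tamoxifen libraries alone called 147 genes (1.57%), 88 higher (0.942%) and 59 lower (0.632%), of which 142 were among the 717. Leaving out any 1 library gave 390 to 1147 calls, with 396, 398 and 390 without controls 3, 4 and 5, 418, 415 and 411 without fl/fl 1, 2 and 3, and 1147 without fl/fl 6. Without the controls numbered 2 and 3 in all 3 sorted populations, the Y-bearing ones here among them, the count was 451 (4.47%), 282 higher (2.80%) and 169 lower (1.68%). Libraries numbered 1 to 3 alone gave 1325 calls (13.4%), 737 higher (7.44%) and 588 lower (5.93%). Libraries numbered 4 and above gave 209 (2.10%), 149 higher (1.50%) and 60 lower (0.604%), and 85 genes were called in both. Of the 717 genes, 703 had the same sign in both of these subsets. The 717 were picked from a fit that held the libraries of both subsets, so this agreement is partly built in.

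**Figure D1:**
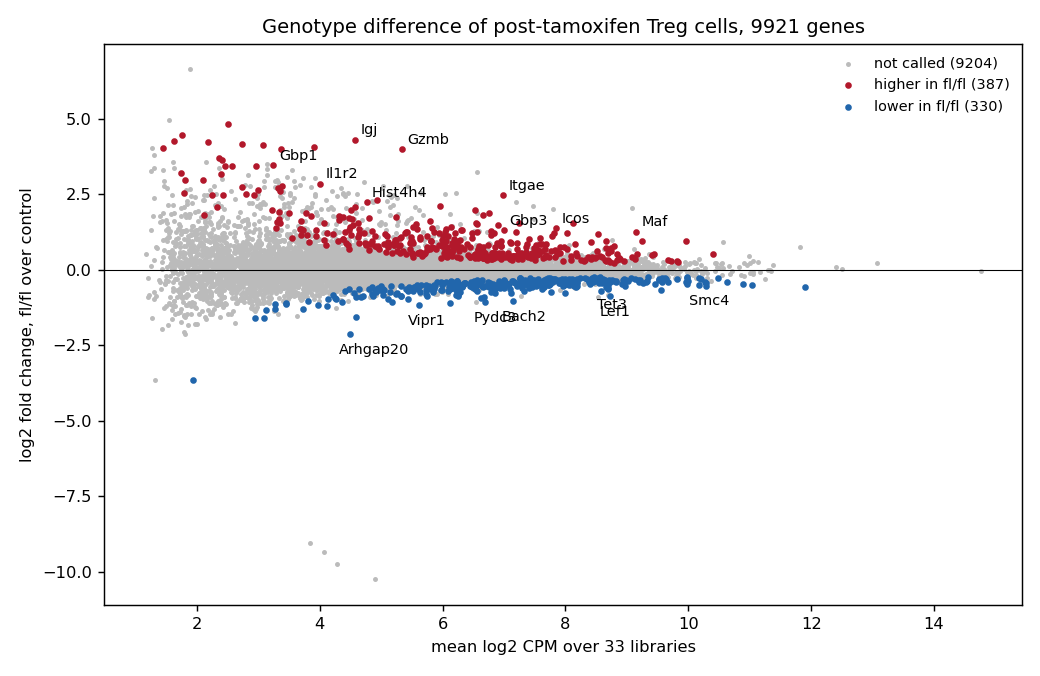
Log2 fold change (fl/fl over control, vertical axis) against the mean log2 CPM over 33 libraries (horizontal axis) for 9921 genes, with 387 genes called higher in fl/fl cells in red, 330 called lower in blue and the others in grey. Called genes lie on both sides of 0, and the rises named in the plot reach larger log2 fold changes (Igj 4.30) than the falls (Arhgap20 -2.14).

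A core of 43 genes was called in every one of 22 fits, those with another scaling, filter or tool, within either set of numbers, with the 11 libraries alone and without any 1 library included. 31 of the core were higher and 12 were lower. This core was picked after its values were seen, as were Il2ra, Batf, Ccr7, Gbp5, Gbp6, Gbp8, Igtp, Irgm1 and Nnt below. The higher ones were Acot7, Baz1a, Bcl2a1b, Bhlhe40, Clic1, Cox5b, Endod1, Fam129a, Gbp1, Gbp2, Gbp3, Gbp7, Glrx, Hip1r, Hist4h4, Ifi27l2a, Iigp1, Il1r2, Mns1, Nfil3, Osbpl3, Plxnc1, Pomp, Ppfibp1, Prkar1a, Prr13, Ptpn13, Rilpl2, Rnf19b, Stx11 and Vps54. The lower ones were Als2cl, Dgkd, Grlf1, Klf7, Mll3, Polg, Pydc3, Sipa1l1, Tcf20, Tet3, Vipr1 and Znrf3. By role, the higher set held interferon-inducible GTPases (Gbp1, Gbp2, Gbp3, Gbp7, Iigp1), transcriptional regulators of activated lymphocytes (Bhlhe40, Nfil3), the decoy receptor Il1r2 and the granule-fusion syntaxin Stx11. The lower set held the DNA demethylase gene Tet3, the histone methyltransferase gene Mll3, Klf7, the Wnt inhibitor gene Znrf3 and the diacylglycerol kinase gene Dgkd.

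Guanylate-binding proteins are large GTPases that interferon-gamma induces and that act against intracellular microbes. Gbp3 (chromosome 3, 142560052 to 142573209, plus strand) had the smallest p of the genes named. It was at 181, 166, 207, 154, 216 and 115 CPM in fl/fl libraries 1 to 6, against 76.1, 94.02, 65.1, 54.6 and 61.4 CPM in controls 1 to 5. Every fl/fl library lay above every control (log2 fold change 1.30 ± 0.14 (SE), adjusted p = 8.54e-08). Gbp1, listed by that name in the counts at the place of RefSeq Gbp2b (chromosome 3, 142594847 to 142619179, plus strand), was at 12, 28.6, 32.5, 14.8, 58.4 and 8.49 CPM in fl/fl cells and 1.27, 3.25, 2.38, 0.723 and 3.21 CPM in controls. The groups did not overlap, although fl/fl libraries themselves ranged widely (log2 fold change 3.46 ± 0.55 (SE), adjusted p = 0.000183). Gbp2 was at 118 to 195 CPM (median 163) in fl/fl cells, against 114, 109, 80.9, 77.7 and 92.9 CPM in controls, again without overlap (log2 fold change 0.75 ± 0.15 (SE), adjusted p = 0.00177). Gbp7 was at 246 to 363 CPM (median 333) in fl/fl cells and at 186, 282, 230.5, 195 and 193 CPM in controls, where control 2 exceeded 2 fl/fl libraries (log2 fold change 0.54 ± 0.12 (SE), adjusted p = 0.00411). Gbp5, next to Gbp7 on chromosome 3, lay at the threshold. It did not pass with TMM scaling (0.54 ± 0.18, adjusted p = 0.056) but did with RLE scaling (adjusted p = 0.0481) and by DESeq2 (adjusted p = 0.0323). Other members did not pass, among them Gbp6 (0.26 ± 0.14, adjusted p = 0.256) and Gbp8 (-0.17 ± 0.12, adjusted p = 0.415) on chromosome 5. Near-identical stretches of these genes can share reads, so the split of counts between them is uncertain.

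The promoters of these neighbouring genes are shown because the 4 Gbp genes were called higher together, and they were chosen with the shared element already known. The interferon-stimulated response element has the core GAAA, any 2 bases, GAAA, which reads TTTC, any 2 bases, TTTC on the other strand. That pattern on either strand was found in 3.44% of 32851 RefSeq promoter windows (GRCm38.p6, 250 bases before to 50 bases after a start site). It was present in a window of each of the 4 called Gbp genes and of Pydc3, which moved the other way. The pattern was also common among members that were not called: of 28 tested members of the interferon-stimulated list with a matched promoter, 17 held it, and 3 of the 28 were called higher. Below, on the strand of the gene, capitals mark the pattern, and the Gbp3 window holds 2 overlapping copies.
Gbp3 promoter, chr3:142559794-142560093: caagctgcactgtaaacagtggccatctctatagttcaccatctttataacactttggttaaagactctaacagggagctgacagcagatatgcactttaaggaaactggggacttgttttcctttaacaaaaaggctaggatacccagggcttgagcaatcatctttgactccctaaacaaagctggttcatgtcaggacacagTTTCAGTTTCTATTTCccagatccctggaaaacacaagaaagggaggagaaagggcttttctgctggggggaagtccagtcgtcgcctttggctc
Gbp7 promoter, chr3:142530086-142530385: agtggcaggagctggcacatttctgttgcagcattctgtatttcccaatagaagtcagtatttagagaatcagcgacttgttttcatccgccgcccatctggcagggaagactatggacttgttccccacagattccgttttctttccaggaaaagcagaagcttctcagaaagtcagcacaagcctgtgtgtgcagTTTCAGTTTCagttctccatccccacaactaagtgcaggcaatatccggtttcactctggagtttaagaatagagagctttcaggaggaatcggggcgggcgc
Gbp2 promoter, chr3:142620413-142620712: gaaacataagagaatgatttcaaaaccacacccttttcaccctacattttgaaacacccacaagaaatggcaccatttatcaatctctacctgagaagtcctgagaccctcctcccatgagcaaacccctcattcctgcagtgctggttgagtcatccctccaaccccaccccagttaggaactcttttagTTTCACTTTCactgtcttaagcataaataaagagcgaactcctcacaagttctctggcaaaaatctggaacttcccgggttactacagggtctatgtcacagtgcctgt
Gbp1 (Gbp2b in RefSeq) promoter, chr3:142594597-142594896: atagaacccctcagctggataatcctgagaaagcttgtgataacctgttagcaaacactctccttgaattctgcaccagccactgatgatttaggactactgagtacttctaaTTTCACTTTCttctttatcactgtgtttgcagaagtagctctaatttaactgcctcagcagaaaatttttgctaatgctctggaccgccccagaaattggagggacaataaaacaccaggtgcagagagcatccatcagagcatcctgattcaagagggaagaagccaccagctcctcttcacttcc
Pydc3 (Ifi208 in RefSeq) promoter, chr1:173673415-173673714: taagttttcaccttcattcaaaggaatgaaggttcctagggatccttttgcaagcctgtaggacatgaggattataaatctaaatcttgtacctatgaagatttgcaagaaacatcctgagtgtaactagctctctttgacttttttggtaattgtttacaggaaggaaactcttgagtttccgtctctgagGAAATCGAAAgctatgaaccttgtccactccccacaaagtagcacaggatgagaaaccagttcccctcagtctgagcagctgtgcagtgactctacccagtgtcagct
Counted from the RefSeq start site, the pattern began 45 and 39 bases before it in Gbp3, 53 in Gbp7, 59 in Gbp2, 137 in Gbp1 and 58 in Pydc3. The start in the counts table lay within 8 bases of the RefSeq one for Gbp3, Gbp7 and Gbp1, but 61 bases away for Gbp2 and 246 bases away for Pydc3, which was matched to Ifi208 by position, so these 2 distances depend on the annotation. A second listed Gbp3 window, 304 bases from the start in the counts table, held no copy. The other pattern looked for, the palindrome TTC, any 3 bases, GAA (8.3% of windows), occurred 2 times in the Gbp7 window and in none of the other 4 shown.

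Among 44 tested genes of the interferon-stimulated list, 5 were called higher and 2 lower (3.90% and 3.33% over all genes), with a median log2 fold change of 0.20 against 0.0083 for all genes. Leaving control 2 out gave 6 and 1 (5.61% and 3.44% over all genes), and the 11 libraries alone 5 and 1 (0.942% and 0.632%). Iigp1, an immunity-related GTPase, was at 149 to 234 CPM (median 200.1) in fl/fl cells and at 97.7, 131, 108, 106 and 68.2 CPM in controls. The groups did not overlap (log2 fold change 0.89 ± 0.17 (SE), adjusted p = 0.00225). Ifi27l2a, a small interferon-induced membrane protein gene, was at 92.3 to 137 CPM (median 114) in fl/fl cells, against 50.7, 57.3, 59.1, 54.9 and 54.5 CPM in controls. Controls were nearly uniform and all lay below the lowest fl/fl library (log2 fold change 1.05 ± 0.20 (SE), adjusted p = 0.00177). Pydc3, of the pyrin-domain Ifi200 family that includes cytosolic DNA sensors, went the other way. It was at 49.99, 59.1, 80.3, 66.01, 64.6 and 72.2 CPM in fl/fl cells and at 128, 182, 129, 126 and 118 CPM in controls, highest in control 2. All fl/fl libraries lay below all controls (log2 fold change -1.06 ± 0.15 (SE), adjusted p = 5.16e-05), and without control 2 the log2 fold change was -0.91 (adjusted p = 9.81e-05). Labeled cells also showed a fall of Pydc3 without overlap, at 46.3 to 74.8 CPM in fl/fl and 95.1 to 125 CPM in control libraries. In ex-Foxp3 cells it was at 75.2 to 139 CPM in fl/fl and 123 to 211 CPM in control libraries. The GTPase genes Igtp (0.25 ± 0.13, adjusted p = 0.242) and Irgm1 (0.14 ± 0.16, adjusted p = 0.632) did not pass.

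**Figure D2:**
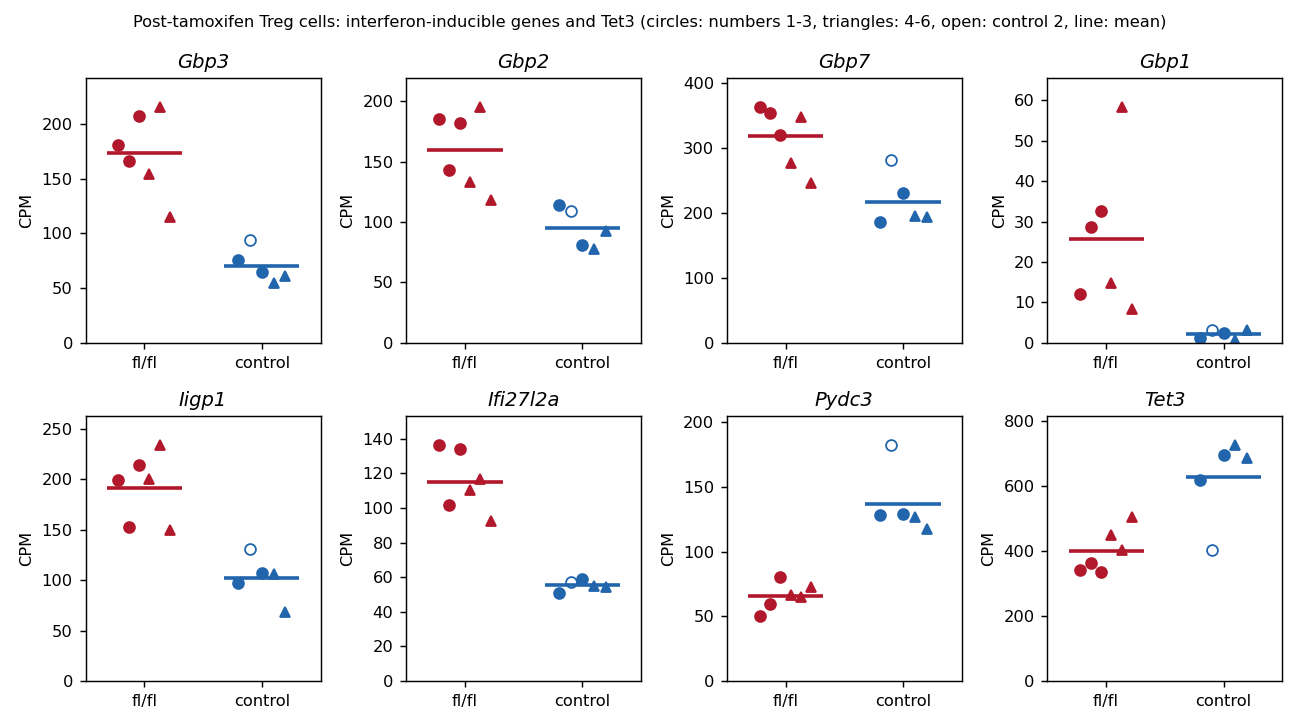
CPM by library of 7 interferon-inducible genes and Tet3, with fl/fl libraries on the left of each panel and controls on the right, circles for numbers 1 to 3, triangles for 4 to 6, an open circle for control 2 and a line at the mean. Groups separate fully at Gbp3, Gbp2, Gbp1, Iigp1, Ifi27l2a and Pydc3, and control 2 is the lowest control at Tet3.

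Effector Treg genes held more calls than any other list in the fit of all 33 libraries. Of 31 tested, 17 were called higher and 0 lower (background 3.90% and 3.33%), and the median log2 fold change was 1.24. With control 2 left out, 22 were higher (5.61% over all genes) and the median was 1.66. Maf, a transcription factor of effector and intestinal Treg cells, was at 782, 579, 644, 398, 599.6 and 340.5 CPM in fl/fl libraries, against 280.3, 399.5, 95.2, 179 and 217 CPM in controls. Fl/fl 4 and 6 lay below control 2 and above the other controls (log2 fold change 1.25 ± 0.24 (SE), adjusted p = 0.0025). Tigit, an inhibitory receptor of effector Treg cells, was at 48.01 to 127 CPM (median 65.5) in fl/fl cells, against 0, 53.03, 11.1, 15.5 and 18.3 CPM in controls. Again only control 2 reached into the fl/fl range (log2 fold change 1.83 ± 0.38 (SE), adjusted p = 0.00487). Batf, which drives effector Treg differentiation, was at 53.3 to 76.9 CPM (median 61.5) in fl/fl cells and 35.5, 54.98, 29.4, 28.6 and 36.6 CPM in controls (log2 fold change 0.75 ± 0.17 (SE), adjusted p = 0.00567). Il10, the suppressive cytokine, was at 29.3, 22.8, 5.64, 7.39, 5.31 and 1.93 CPM in fl/fl libraries, against 2.54, 1.63, 0, 1.81 and 0 CPM in controls, with the highest levels in fl/fl 1 and 2 (log2 fold change 3.43 ± 0.72 (SE), adjusted p = 0.00337). Havcr2, which encodes Tim-3, was at 47.3, 43.3, 24.7, 3.69, 2.65 and 1.93 CPM in fl/fl cells and 3.80, 0.976, 0, 1.45 and 0.916 CPM in controls. Its rise was carried by fl/fl 1 to 3 (log2 fold change 4.14 ± 0.90 (SE), adjusted p = 0.00503).

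Gzmb, the cytotoxic protease used by effector Treg cells, was at 201, 129, 89.4, 7.85, 45.1 and 5.02 CPM in fl/fl cells and 10.1, 7.81, 0.793, 5.06 and 3.21 CPM in controls. It was highest in fl/fl 1 to 3, and fl/fl 5 also lay above every control. Its log2 fold change was 3.998 ± 1.005 (SE), adjusted p = 0.0147. Il1rl1, the interleukin-33 receptor of tissue Treg cells, was at 35.9 to 135 CPM (median 77.2) in fl/fl cells and 12.7, 62.5, 3.97, 12.7 and 15.1 CPM in controls, where control 2 again stood apart (1.86 ± 0.49, adjusted p = 0.0202; without control 2, 2.97, adjusted p = 0.000421). S100a6, a calcium-binding protein of activated cells, was at 185, 145, 200.4, 37.9, 51.3 and 35.5 CPM in fl/fl cells and 30.4, 41.3, 13.1, 27.8 and 25.2 CPM in controls (1.99 ± 0.53, adjusted p = 0.0209). Itgb1, an integrin chain high in effector cells, was at 1919, 1808, 1985, 914, 737 and 811 CPM in fl/fl cells and 673, 1709, 279, 476 and 477 CPM in controls and was called without control 2 but not with it (all libraries 0.91 ± 0.35, adjusted p = 0.105; without control 2, 1.55, adjusted p = 0.0025). Leaving out 1 library ended the call of Gzmb without control 3 (adjusted p = 0.0521), Il1rl1 without control 3, 4 and 5 or fl/fl 2 (adjusted p up to 0.0642) and S100a6 without control 3, 4 and 5 or fl/fl 1 and 3 (adjusted p up to 0.0701). Fitted on the 11 libraries alone, the adjusted p was 0.0987 for Maf, 0.0555 for Il10, 0.124 for Tigit, 0.0928 for Gzmb, 0.138 for Il1rl1 and 0.107 for S100a6. In that fit 1 of 29 list members tested was called higher (0.942% over all genes). Within numbers 1 to 3 the list median was 1.28 with 15 of 31 called higher (7.44% over all genes), and within numbers 4 and above 0.63 with 9 of 31 (1.50% over all genes).

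Treg core genes, those that mark Treg cells against other T cells, moved in part. Of 30 tested, 8 were called higher and 0 lower (3.90% and 3.33% over all genes), with a median of 0.51. Without control 2 the counts were 10 and 1 (5.61% and 3.44% over all genes). Icos, a costimulatory receptor, was at 374, 333, 282, 185, 148 and 127 CPM in fl/fl libraries, against 65.9, 154, 67.5, 81.3 and 87.9 CPM in controls. Control 2 lay within the fl/fl range and the other 4 controls below it (log2 fold change 1.37 ± 0.24 (SE), adjusted p = 0.00104). Entpd1, the ectonucleotidase CD39, was at 36.7 to 78.1 CPM (median 54.1) in fl/fl cells and 20.3, 41.97, 19.8, 20.96 and 29.8 CPM in controls (log2 fold change 1.02 ± 0.19 (SE), adjusted p = 0.00143). Ctla4, the inhibitory receptor through which Treg cells strip CD80 and CD86, was at 141 to 305 CPM (median 221) in fl/fl cells, against 71.01, 105, 148, 152 and 124 CPM in controls. Fl/fl 3 alone lay within the control range (log2 fold change 0.84 ± 0.18 (SE), adjusted p = 0.00503). Tnfrsf1b, which encodes TNF receptor 2, was at 174 to 300.0 CPM (median 248) in fl/fl cells and 62.1, 178, 135, 149 and 177 CPM in controls (log2 fold change 0.75 ± 0.16 (SE), adjusted p = 0.0042). Itgae, the alpha chain of an epithelial-binding integrin, was at 386, 173, 115, 87.2, 86.7 and 57.9 CPM in fl/fl cells and 21.6, 58.6, 12.7, 12.3 and 26.6 CPM in controls (log2 fold change 2.46 ± 0.50 (SE), adjusted p = 0.00402). Nrp1, a marker of thymic Treg cells, turned on control 2. It was at 277 to 503 CPM (median 450.0) in fl/fl cells, against 158, 545, 167, 199.8 and 255 CPM in controls, and passed by edgeR without that library but not with it (0.68 ± 0.24, adjusted p = 0.0764; without control 2, 1.15, adjusted p = 0.000149), and by DESeq2 with it (adjusted p = 0.0354). With the 11 libraries alone 3 of 30 members were called higher (0.942% over all genes). With the 11 libraries alone the adjusted p was 0.073 for Icos, 0.0659 for Ctla4, 0.088 for Tnfrsf1b and 0.0789 for Itgae.

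A minority of the naive and central T cell genes passed, all of them lower in fl/fl cells. Of 24 tested, 6 were called lower and 0 higher (3.33% and 3.90% over all genes), with a median of -0.55. Without control 2 the counts were the same (3.44% and 5.61% over all genes). With the 11 libraries alone 1 of 24, Rapgef4, was called lower (0.632% over all genes). Lef1, a transcription factor of resting T cells, was at 282, 318, 262, 534, 449 and 561 CPM in fl/fl libraries, against 669.6, 575, 844, 849.6 and 739.9 CPM in controls. All fl/fl libraries lay below all controls (log2 fold change -0.88 ± 0.17 (SE), adjusted p = 0.00195). Bach2, which holds back effector genes, was at 75.3, 119, 76.4, 196, 176 and 232 CPM in fl/fl cells and 279, 160.1, 359.5, 340.0 and 346 CPM in controls. Control 2 was the lowest control and lay within the fl/fl range (log2 fold change -1.02 ± 0.23 (SE), adjusted p = 0.00678). Foxp1, which keeps T cells quiescent, was at 261 to 551 CPM (median 386) in fl/fl cells and 589.7, 499.7, 713, 655 and 614 CPM in controls (log2 fold change -0.59 ± 0.14 (SE), adjusted p = 0.00681). Rapgef4, an exchange factor activated by cyclic AMP, was at 18.6 to 27.4 CPM (median 20.1) in fl/fl cells, against 55.8, 40.01, 45.6, 33.6 and 29.8 CPM in controls, without overlap (log2 fold change -0.91 ± 0.22 (SE), adjusted p = 0.00709). Actn1 and Foxo1 were called lower as well. Tcf7, the partner of Lef1, did not pass by edgeR (-0.49 ± 0.17, adjusted p = 0.0681) but did by DESeq2 (adjusted p = 0.0337). The lymph node homing receptor Ccr7 did not pass either (-0.55 ± 0.24, adjusted p = 0.15). Within numbers 1 to 3 the list median was -0.84 with 15 of 24 lower (5.93% over all genes), and within numbers 4 and above -0.35 with 3 of 24 lower (0.604% over all genes). Fitted on the 11 libraries alone, the adjusted p was 0.0588 for Lef1, 0.137 for Bach2 and 0.0731 for Foxp1.

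Genes of the cell cycle divided the fl/fl libraries into those numbered 1 to 3 and those numbered 4 to 6. The 54 genes of the G2/M and mitosis list summed to 8532, 6955, 10420.0, 1929, 2104 and 2695 CPM in fl/fl libraries 1 to 6 and to 4228, 2298, 3346, 2100.0 and 2232 CPM in controls 1 to 5. Fl/fl 1 to 3 exceeded every control, and the sums of fl/fl 4 to 6 lay at the level of the controls. Much of the lower sums was Smc4, a member that was lower in fl/fl cells (given below). These sums therefore do not show how the other members moved. Within numbers 4 and above, 41 of 45 members tested had a positive log2 fold change (median 0.85). The clustered histone genes, which are made in S phase, summed to 5092, 4228, 7169, 842, 1051 and 1095 CPM in fl/fl libraries, against 1519, 803, 1165, 601 and 761 CPM in controls. The S phase list summed to 3532, 3207, 4033, 1398, 1603 and 1659 CPM in fl/fl libraries, against 2088, 1360.0, 1603, 1215 and 1289 CPM in controls. In bulk libraries a larger share of dividing cells and more transcript per cell cannot be told apart. Fl/fl 1 to 3 also held the B and plasma cell sums of 546 to 1423 CPM given above, and the part of such cells in the cell cycle levels was not tested.

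Few members passed in the fit of group means alone, without a term for the library number. Of the G2/M list 6 of 54 were called higher and 1 lower (median 2.09), of the S phase list 4 of 51 were higher (median 0.87) and of the histone list 6 of 44 were higher (median 2.29). Over all genes 3.90% were higher and 3.33% lower. The fit without control 2 gave 3 of 54 higher and 1 lower, 3 of 51 higher and 3 of 45 higher, and the 11 libraries alone 0 of 49, 0 of 48 and 3 of 36. The shares of all genes called higher were 5.61% without control 2 and 0.942% with the 11 libraries alone. Mki67, the proliferation antigen, was at 2003, 1462, 2316, 174, 220.2 and 267 CPM in fl/fl libraries, against 669.6, 224, 281, 99.01 and 93.4 CPM in controls and did not pass by edgeR (log2 fold change 2.04 ± 0.77 (SE), adjusted p = 0.1) but did by DESeq2 (adjusted p = 0.0474). Top2a, the mitotic topoisomerase, did not pass (2.02 ± 0.77, adjusted p = 0.102). Both were called higher within numbers 1 to 3 (Mki67 2.35, adjusted p = 0.00771; Top2a 2.28, adjusted p = 0.0128) and within numbers 4 and above (Mki67 1.21, adjusted p = 1.4e-06; Top2a 1.40, adjusted p = 3.64e-05). Called members included Mcm6 of the replicative helicase, at 297, 294, 295, 157, 159 and 185 CPM in fl/fl cells and 202, 130.5, 123, 122 and 98.4 CPM in controls (0.81 ± 0.22, adjusted p = 0.0221). Slbp, which binds histone mRNA, was at 128, 129.5, 138, 76.6, 74.3 and 78.4 CPM in fl/fl cells and 76.1, 63.4, 67.5, 48.1 and 56.8 CPM in controls (0.76 ± 0.20, adjusted p = 0.0141). Hist4h4, a histone H4 gene, was at 53.98, 54.5, 73.3, 25.4, 25.6 and 29.7 CPM in fl/fl libraries, against 0, 11.1, 16.3, 6.87 and 7.78 CPM in controls. Here also fl/fl 4 to 6 lay above every control (2.24 ± 0.55, adjusted p = 0.012).

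Other called members were the DNA polymerase gene Pold1 (0.53 ± 0.16, adjusted p = 0.0416), Melk (2.62 ± 0.68, adjusted p = 0.017), the spindle gene Tacc3 (2.08 ± 0.64, adjusted p = 0.0475), the centromeric histone gene Cenpa (1.28 ± 0.38, adjusted p = 0.0381), and the histone genes Hist2h4 (1.70 ± 0.47, adjusted p = 0.0257) and Hist1h2an (4.05 ± 1.22, adjusted p = 0.0422). The lower member, Smc4 of the condensin complex, was at 888 to 1501 CPM (median 1123) in fl/fl cells, against 1442, 1454, 2055, 1574 and 1707 CPM in controls (-0.52 ± 0.11, adjusted p = 0.00448). Histone genes are near-identical copies, so reads may be split between them. Leaving out 1 library ended the call of Mcm6 without control 3, 4 and 5 or fl/fl 1, 2 and 3 (adjusted p up to 0.0742), Slbp without control 4 (adjusted p = 0.0552), Melk without control 4 and 5 (adjusted p up to 0.0588), Tacc3 without control 1, 2, 3, 4 and 5 or fl/fl 1, 2 and 3 (adjusted p up to 0.143), Cenpa without control 1, 3, 4 and 5 or fl/fl 1, 2 and 3 (adjusted p up to 0.116), Hist2h4 without control 1, 3, 4 and 5 or fl/fl 1 and 3 (adjusted p up to 0.0777), Hist1h2an without control 1, 2, 4 and 5 or fl/fl 1, 2 and 3 (adjusted p up to 0.106) and Pold1 without control 2, 3, 4 and 5 or fl/fl 1, 2 and 3 (adjusted p up to 0.107). With the 11 libraries alone the adjusted p was 0.0884 for Mcm6, 0.0525 for Slbp, 0.0508 for Melk, 0.124 for Tacc3, 0.0979 for Cenpa, 0.124 for Hist1h2an, 0.0979 for Pold1 and 0.0508 for Smc4. Within numbers 1 to 3 the medians of the G2/M, histone and S phase lists were 2.50, 2.62 and 1.20, with 49 of 54, 39 of 45 and 35 of 51 members higher (7.44% over all genes). Within numbers 4 and above they were 0.85, 1.07 and 0.40, with 3 of 45, 2 of 33 and 1 of 50 higher (1.50% over all genes).

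**Figure D3:**
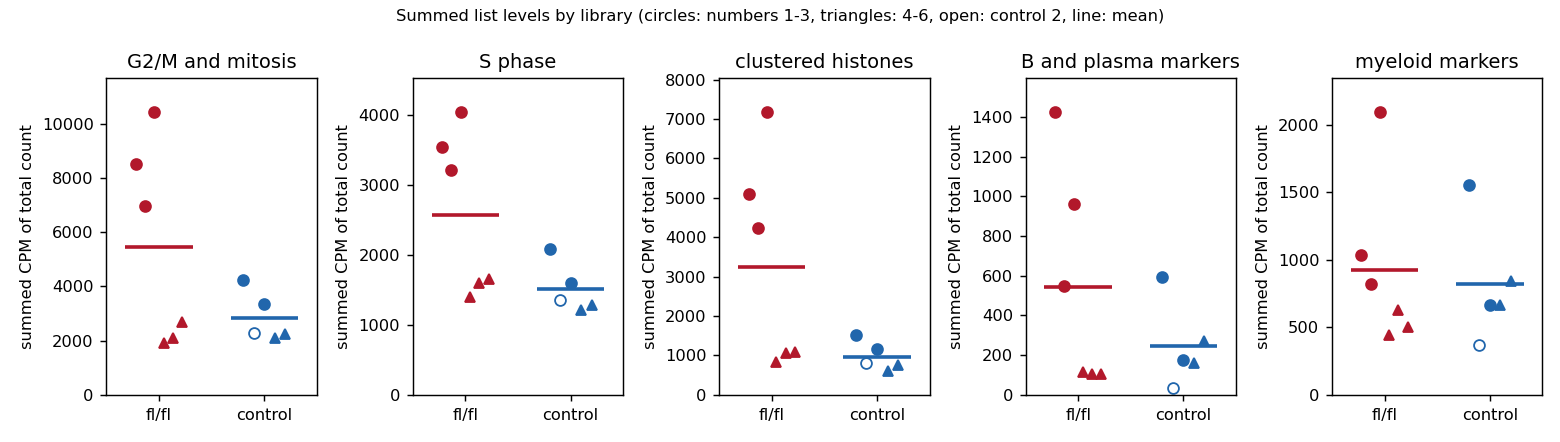
Summed CPM of the total count by library for the G2/M, S phase, clustered histone, B and plasma cell and myeloid lists, with fl/fl libraries on the left of each panel and controls on the right, circles for numbers 1 to 3, triangles for 4 to 6, an open circle for control 2 and a line at the mean. Fl/fl libraries 1 to 3 lie above fl/fl 4 to 6 in every panel, and in the first 3 panels also above every control.

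Helper cell lists held further calls, all of them higher. They numbered 5 of 21 Th1 and cytotoxic genes, 3 of 11 Th2 and Th17 genes, 4 of 17 follicular helper genes and 5 of 11 inhibitory receptors, with medians of 0.93, 0.85, 0.90 and 0.90, where 3.90% of all genes were higher. Leaving out control 2 gave 10 of 21, 5 of 11, 7 of 17 and 7 of 11, and the 11 libraries alone gave 2 of 17, 0 of 8, 2 of 16 and 2 of 10. Over all genes 5.61% were higher without control 2 and 0.942% with the 11 libraries alone. Several members belong to the effector Treg or Treg core lists as well (Gzmb, Il1rl1, Icos, Maf, Ctla4, Entpd1, Havcr2 and Tigit). Bhlhe40, a transcription factor of cytokine-producing T cells, was at 148, 148, 217, 99.7, 126 and 90.7 CPM in fl/fl libraries, against 30.4, 74.2, 32.1, 56.01 and 48.99 CPM in controls. The groups did not overlap (log2 fold change 1.47 ± 0.26 (SE), adjusted p = 0.00127). Il12rb1, a chain of the receptors for interleukin-12 and interleukin-23, was at 37.9 to 77.3 CPM (median 54.4) in fl/fl cells, against 10.1, 26.4, 25, 31.8 and 28.8 CPM in controls, also without overlap (log2 fold change 1.10 ± 0.20 (SE), adjusted p = 0.00101). The granule gene Nkg7 (1.96 ± 0.52, adjusted p = 0.0203), the ligand-activated transcription factor Ahr (0.85 ± 0.21, adjusted p = 0.012) and the skin-homing receptor Ccr4 (0.98 ± 0.26, adjusted p = 0.0205) were higher too. Sh2d1a, the SLAM adaptor needed by follicular helper cells, gave 0.68 ± 0.20, adjusted p = 0.035 and Tox2 1.34 ± 0.40, adjusted p = 0.0407. Pdcd1, which encodes PD-1, was at 57.3 to 106 CPM (median 83.9) in fl/fl cells and 21.6, 63.8, 36.1, 51.3 and 45.8 CPM in controls and missed the threshold (0.90 ± 0.32, adjusted p = 0.0799). It passed with the 11 libraries alone (adjusted p = 0.0477), by DESeq2 (adjusted p = 0.0317) and, barely, without control 2 (adjusted p = 0.04997).

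Genes outside the pathway lists were among the largest rises. Il1r2, a receptor that binds interleukin-1 without signalling, was at 17.99, 21.6, 17.4, 18, 14.2 and 13.1 CPM in fl/fl libraries, against 1.27, 2.60, 1.59, 3.61 and 1.83 CPM in controls. The lowest fl/fl library lay far above the highest control (log2 fold change 2.85 ± 0.40 (SE), adjusted p = 5.16e-05). Csf1, the macrophage growth factor, was at 213, 95.5, 112, 26.8, 38.9 and 37.8 CPM in fl/fl cells and 7.61, 42.9, 8.73, 10.8 and 24.3 CPM in controls (log2 fold change 2.10 ± 0.49 (SE), adjusted p = 0.00967). Gcnt1, which builds selectin ligands, was at 70.7, 57.6, 44.2, 16.6, 11.5 and 10.4 CPM in fl/fl cells and 16.5, 11.1, 1.98, 3.25 and 7.33 CPM in controls (log2 fold change 2.31 ± 0.51 (SE), adjusted p = 0.00594). Igj, the joining chain of secreted antibodies, was the largest called rise of those named here. It was at 478, 131, 132, 0, 2.65 and 4.63 CPM in fl/fl cells and 10.1, 0, 5.16, 0 and 19.7 CPM in controls (4.30 ± 1.09, adjusted p = 0.0153), and DESeq2 did not call it (4.18, adjusted p = 0.145). It is a plasma cell gene with its high values in fl/fl 1 to 3, and within numbers 4 and above its log2 fold change was -1.93. Igj is itself a member of the B and plasma cell list, so its rise together with those sums is partly built in. The part of plasma cells in its rise was not tested. Cybb was the 1 called myeloid marker (1.11 ± 0.30, adjusted p = 0.0226), with a median of 0.19 over the 15 tested, and without control 2 also 1 was called, with a median of -0.165 over 16. Leaving out 1 library ended the call of Nkg7 without control 3, 4 and 5 or fl/fl 2 (adjusted p up to 0.0732), Ahr without control 3 (adjusted p = 0.0544), Ccr4 without control 3, 4 and 5 or fl/fl 1 (adjusted p up to 0.0753), Sh2d1a without control 1, 3, 4 and 5 or fl/fl 1, 2 and 3 (adjusted p up to 0.0991), Tox2 without control 1, 3, 4 and 5 or fl/fl 2, 3 and 5 (adjusted p up to 0.12), Igj without fl/fl 1 (adjusted p = 0.0991) and Cybb without control 3, 4 and 5 or fl/fl 1 and 3 (adjusted p up to 0.0817). Fitted on the 11 libraries alone, the adjusted p was 0.0502 for Nkg7, 0.127 for Ahr, 0.145 for Ccr4, 0.0538 for Sh2d1a, 0.132 for Csf1, 0.108 for Gcnt1, 0.192 for Igj and 0.0736 for Cybb.

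Falls were smaller in size than rises among the genes named. Vipr1, a receptor for vasoactive intestinal peptide, was at 36.7, 26.7, 48.2, 32.8, 22.1 and 31.3 CPM in fl/fl libraries, against 106, 77.8, 53.6, 76.6 and 67.8 CPM in controls. The groups did not overlap (log2 fold change -1.18 ± 0.27 (SE), adjusted p = 0.00652). Adcy6, an adenylyl cyclase, was at 14, 20.9, 13.4, 28.6, 34.5 and 42.1 CPM in fl/fl cells and 57.1, 23.1, 113, 96.1 and 89.3 CPM in controls, with control 2 inside the fl/fl range (log2 fold change -1.57 ± 0.42 (SE), adjusted p = 0.0217). Prkar1a, a regulatory subunit of protein kinase A, was instead higher, at 453 to 564 CPM (median 496) in fl/fl cells and 297, 409, 322, 362 and 369 CPM in controls (0.51 ± 0.085, adjusted p = 0.00035). Arhgap20, a GTPase-activating protein, showed the steepest fall of those named, at 4.67, 13.1, 2.17, 35.1, 22.99 and 38.2 CPM in fl/fl cells and 41.9, 8.78, 183, 95.04 and 98.9 CPM in controls (-2.14 ± 0.54, adjusted p = 0.0157). The cilium-associated gene Dzip1 (-1.09 ± 0.22, adjusted p = 0.00311) and Znrf3, which removes Wnt receptors from the membrane (-0.98 ± 0.24, adjusted p = 0.0103), were lower. So were Qser1 (-1.08 ± 0.29, adjusted p = 0.0183), the mitochondrial carrier Slc25a23 (-1.06 ± 0.29, adjusted p = 0.021) and the insulin receptor substrate Irs2 (-0.96 ± 0.31, adjusted p = 0.0489). Leaving out 1 library ended the call of Arhgap20 without control 3 (adjusted p = 0.0857), Adcy6 without control 3, 4 and 5 or fl/fl 1, 2 and 3 (adjusted p up to 0.0788), Qser1 without fl/fl 3 (adjusted p = 0.0515), Slc25a23 without control 4 and 5 or fl/fl 2 and 3 (adjusted p up to 0.0791) and Irs2 without control 1, 3, 4 and 5 or fl/fl 1, 2 and 3 (adjusted p up to 0.173). With the 11 libraries alone the adjusted p was 0.178 for Arhgap20, 0.0794 for Adcy6, 0.053 for Dzip1, 0.0508 for Qser1, 0.053 for Slc25a23 and 0.13 for Irs2.

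Among 21 tested genes of DNA methylation and demethylation, only Tet3 was called, and it was lower (median of the list -0.026). Over all genes 7.23% were called, so 1 of 21 is near that share. In the fit without control 2, 2 of the list were higher and 2 lower (5.61% and 3.44% over all genes). Tet3, which oxidises 5-methylcytosine, was at 341, 364, 335, 449, 403 and 504 CPM in fl/fl libraries, against 620.1, 405, 698, 728 and 689 CPM in controls. Control 2 lay within the fl/fl range and the other 4 controls above it (log2 fold change -0.65 ± 0.12 (SE), adjusted p = 0.00073; without control 2, -0.76, adjusted p = 5.4e-06). Dnmt1, the maintenance methyltransferase, was at 542, 431, 596, 325, 361 and 313 CPM in fl/fl cells and 416, 311, 308, 268 and 251 CPM in controls, highest in the fl/fl libraries with high cell cycle sums, and did not pass (0.47 ± 0.18, adjusted p = 0.103). Dnmt3a, a methyltransferase for unmethylated sites, was at 161 to 312 CPM (median 243) in fl/fl cells and 261, 209, 346, 349 and 329 CPM in controls. It did not pass with all libraries (-0.29 ± 0.12, adjusted p = 0.133) but did without control 2 (-0.385, adjusted p = 0.0335) or fl/fl 6 (-0.374, adjusted p = 0.0449). Mll3, a histone H3 lysine 4 methyltransferase of enhancers, was lower in fl/fl cells at 477 to 837 CPM (median 606), against 959, 796, 1035, 1066 and 1136 CPM in controls (-0.68 ± 0.14, adjusted p = 0.00318), and Baz1a, a chromatin remodelling subunit, was higher (0.62 ± 0.11, adjusted p = 0.000538). Genes normally silenced by methylation gave little signal. Only 2 of 29 germline genes had enough counts to be tested, and neither was called by edgeR, with or without control 2. Of 7 imprinted genes tested, Gnas was higher (0.24 ± 0.076, adjusted p = 0.0475) and Zrsr1 lower (-0.66 ± 0.19, adjusted p = 0.0254), and without control 2 it was 0 higher and 1 lower. Leaving out 1 library ended the call of Gnas without control 1, 2, 4 and 5 or fl/fl 1, 2 and 3 (adjusted p up to 0.1) and Zrsr1 without control 2 and 5 or fl/fl 1, 2 and 3 (adjusted p up to 0.0831), and with the 11 libraries alone the adjusted p was 0.132 for Gnas and 0.0731 for Zrsr1.

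Of 17 survival genes tested, 4 were called higher and 0 lower (3.90% and 3.33% over all genes), with a median of -0.04 and 8 of 17 positive. Without control 2 it was 5 higher (5.61% over all genes), and with the 11 libraries alone 2 (0.942% over all genes). The called ones include both pro-death and protective genes. Bak1, a pore-forming killer of the mitochondrial pathway, was at 47.1 to 72.5 CPM (median 60.6) in fl/fl cells, against 34.2, 26.03, 31.7, 36.9 and 34.8 CPM in controls. The groups did not overlap (log2 fold change 0.88 ± 0.16 (SE), adjusted p = 0.00101). Bcl2a1b, a protective relative of Bcl-2, was at 34.5 to 54.5 CPM (median 44.6) in fl/fl cells and 10.1, 36.8, 11.5, 13.4 and 18.8 CPM in controls, where control 2 again lay in the fl/fl range (log2 fold change 1.24 ± 0.25 (SE), adjusted p = 0.00225). Its near-identical neighbour Bcl2a1d (1.30 ± 0.36, adjusted p = 0.0205) can share its reads. Pmaip1, which encodes the pro-death protein Noxa, gave 1.07 ± 0.30, adjusted p = 0.0256. Bcl2 itself (-0.47 ± 0.23, adjusted p = 0.204) and Mcl1 (-0.21 ± 0.082, adjusted p = 0.0961) did not pass. Of 18 p53 target genes, 2 were higher and Sesn1 was lower (-0.57 ± 0.18, adjusted p = 0.0466), and without control 2 it was 3 and 1. Leaving out 1 library ended the call of Bcl2a1d without control 3 and 4 or fl/fl 1 and 2 (adjusted p up to 0.075), Pmaip1 without control 3 and 4 or fl/fl 1, 2 and 3 (adjusted p up to 0.0947) and Sesn1 without control 1, 3, 4 and 5 or fl/fl 1, 2, 3 and 5 (adjusted p up to 0.151), and with the 11 libraries alone the adjusted p was 0.138 for Bcl2a1d, 0.181 for Pmaip1 and 0.147 for Sesn1.

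A few metabolic and proteasome genes passed. Of 20 glycolysis genes, 6 were called higher and 1 lower (median 0.28), of 52 nuclear-encoded respiratory chain genes 4 were higher (median 0.24), and of 34 proteasome genes 4 were higher (median 0.26), where 3.90% of all genes were higher and 3.33% lower. Without control 2 the counts were 7 and 1 of 20, 5 of 52 and 7 of 34 (5.61% higher and 3.44% lower over all genes). With the 11 libraries alone they were 2 and 1 of 19, 2 of 52 and 2 of 34 (0.942% higher and 0.632% lower over all genes). Within numbers 4 and above they were 0 of 20, 1 of 52 (median 0.12) and 1 of 34 (1.50% higher over all genes). All 34 proteasome genes and 48 of 52 respiratory chain genes had a positive log2 fold change, and 33 and 47 without control 2. The median log2 fold change of all genes was 0.0083 and 0.029 in these 2 fits. Aldoa, glycolytic aldolase, was at 199 to 295 CPM (median 237) in fl/fl cells and 139.5, 205, 125, 162 and 133 CPM in controls (0.65 ± 0.13, adjusted p = 0.00311), and Tpi1, triose phosphate isomerase, was at 28.2 to 57.3 CPM (median 41.2) in fl/fl cells and 16.5, 18.5, 25, 19.9 and 14.7 CPM in controls (1.11 ± 0.23, adjusted p = 0.00246). Pfkp, a phosphofructokinase, gave 0.47 ± 0.11, adjusted p = 0.00678. Pdk1, which holds pyruvate back from the mitochondria, was the member that fell, at 86.6 to 123 CPM (median 98.6) in fl/fl cells, against 212, 176, 172, 144 and 162 CPM in controls (-0.72 ± 0.14, adjusted p = 0.00212). Cox5b of cytochrome oxidase was at 84.9 to 127 CPM (median 105) in fl/fl cells and 71.01, 78.1, 60.7, 63.2 and 52.2 CPM in controls, without overlap (0.70 ± 0.14, adjusted p = 0.00227), and Cox7b gave 0.56 ± 0.13, adjusted p = 0.00836. Psma4, a core proteasome subunit (0.47 ± 0.11, adjusted p = 0.00683), and Pomp, which assembles that core (0.67 ± 0.16, adjusted p = 0.00768), were higher. Polg, the mitochondrial DNA polymerase, was lower (-0.52 ± 0.11, adjusted p = 0.00337). Nnt, the mitochondrial transhydrogenase, was at 18.7 to 36.5 CPM (median 28.6) in fl/fl cells and 50.7, 41.3, 56.7, 53.8 and 52.6 CPM in controls (-0.86 ± 0.15, adjusted p = 0.000671). Nnt was also lower without overlap in labeled cells, at 26.51 to 35.25 CPM in fl/fl and 37.51 to 58.48 CPM in control libraries. The same held in ex-Foxp3 cells, at 18.07 to 29.17 CPM in fl/fl and 47.95 to 65.97 CPM in control libraries. Fitted on the 11 libraries alone, the adjusted p was 0.0761 for Pfkp.

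Several lists held 1 or 2 calls each, where 3.90% of all genes were called higher and 3.33% lower. Of 26 genes induced by the T cell receptor only Irf4 was called (0.51 ± 0.15, adjusted p = 0.0311, lost without control 2, 3 and 5 or fl/fl 1 and 2 with an adjusted p up to 0.0872 and with the 11 libraries alone at 0.088), and of 21 NF-kB genes 2 were called higher, Icam1 and Bcl2a1d. Of 16 thymic and recent emigrant genes, 1 was called lower, St8sia1 (median -0.31). Of 25 chemokine receptor and homing genes, 2 were called higher, Ccr4 and Itgae (median 0.35). Without control 2 the higher and lower counts were 0 and 0 for the T cell receptor list, 1 and 1 for NF-kB, 1 and 2 for the thymic list, and 4 and 0 for chemokine receptors. Over all genes that fit called 5.61% higher and 3.44% lower.

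**Figure D4:**
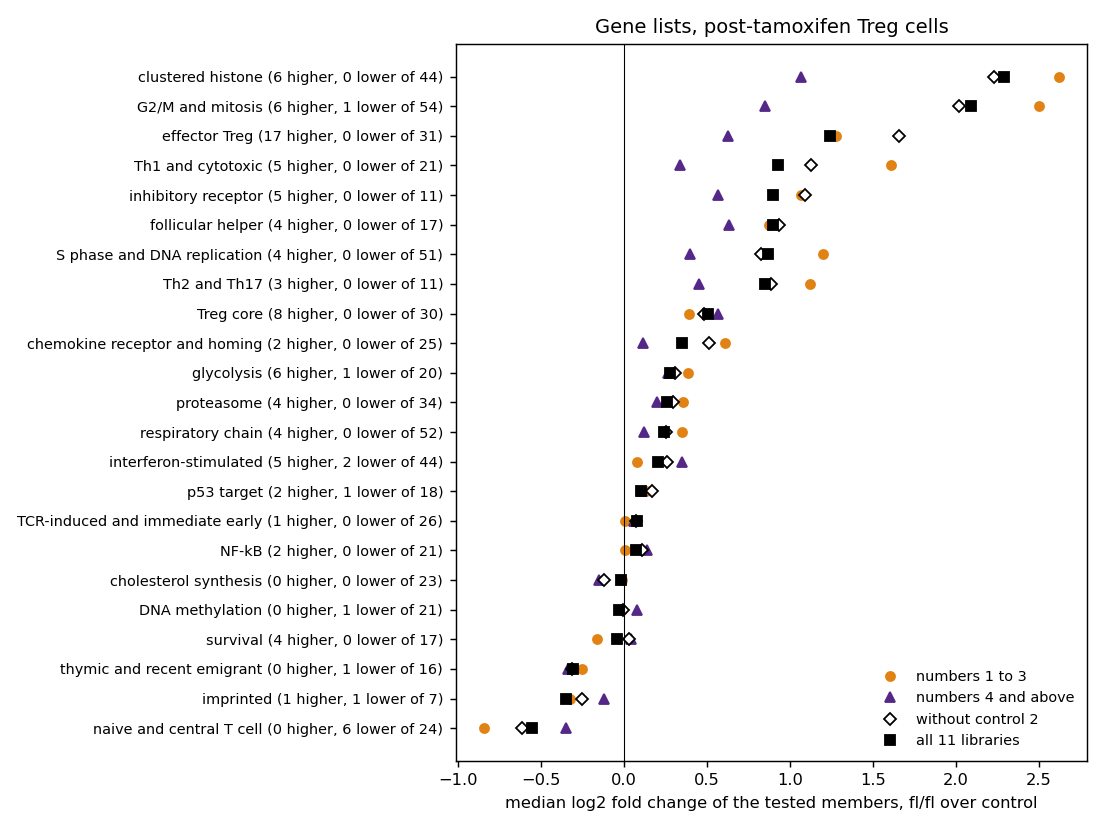
Median log2 fold change (fl/fl over control, horizontal axis) of the tested members of 23 gene lists, for all 11 libraries (black squares), without control 2 (open diamonds), within numbers 1 to 3 (orange circles) and within numbers 4 and above (purple triangles), with the called members counted beside each name. Medians of the histone, G2/M, effector Treg and S phase lists are larger within numbers 1 to 3 than within 4 and above, and the Treg core, interferon and NF-kB medians are the reverse.

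The same genotypes were compared in labeled Treg cells (GFP and tdTomato positive) and in ex-Foxp3 cells (tdTomato positive only), where the same fit called 1 gene (0.0101%) and 18 genes (0.181%). A test of the difference between contrasts called few genes. The genotype effect in post-tamoxifen cells exceeded that in labeled cells at 2 of 9921 genes (0.0202%, edgeR, 767 at an unadjusted p under 0.05), and both were guanylate-binding protein genes. Gbp3 averaged 172 ± 22.97 CPM in fl/fl and 146 ± 14.9 CPM in control labeled cells (SD, n = 6 and n = 5), and the difference in log2 fold change was 1.06 ± 0.19, adjusted p = 0.014. Gbp1 averaged 8.05 ± 3.08 CPM in fl/fl and 10.8 ± 3.82 CPM in control labeled cells (3.83 ± 0.72, adjusted p = 0.02). In post-tamoxifen cells Gbp3 was at 115 to 216 CPM in fl/fl and 54.6 to 94.0 CPM in control libraries. Labeled cells of both genotypes lay within that fl/fl range. In ex-Foxp3 cells Gbp3 was at 87.6 to 118 CPM in fl/fl and 78.8 to 102 CPM in control libraries, which overlaps the control post-tamoxifen range. Against ex-Foxp3 cells the genotype effect differed at 5 genes (0.0504%, 971 at an unadjusted p under 0.05). Gbp3 (1.15 ± 0.19, adjusted p = 0.00365) and Rilpl2, a regulator of ciliary transport (1.24 ± 0.25, adjusted p = 0.0397), differed upward (0.0202%). Fam65b, also known as Ripor2 (-0.58 ± 0.12, adjusted p = 0.0397), Arhgef18, a guanine nucleotide exchange factor (-0.64 ± 0.13, adjusted p = 0.0397), and the zinc finger gene Zfp113 (-1.14 ± 0.23, adjusted p = 0.0397) differed downward (0.0302%).

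In the post-tamoxifen cells themselves, Rilpl2 was at 61.4 to 129 CPM (median 92.7) in fl/fl libraries, against 21.6, 51.7, 36.1, 35.05 and 36.2 CPM in controls (1.30 ± 0.19, adjusted p = 5.3e-05). Arhgef18 was at 329.9 to 524 CPM (median 414) in fl/fl libraries, against 637, 602, 694, 563 and 651 CPM in controls (-0.55 ± 0.093, adjusted p = 0.000384), and Fam65b at 602 to 793 CPM (median 670.2) in fl/fl libraries, against 867, 912, 985, 897 and 865 CPM in controls (-0.40 ± 0.083, adjusted p = 0.00311). None of these 3 genes overlapped between the genotypes. Without control 2 the numbers of genes with a different genotype effect were 16 against labeled cells and 36 against ex-Foxp3 cells. They were 0 against labeled cells without control 3 or control 4. Against ex-Foxp3 cells 1 gene was called without control 1, 3 or 4 or fl/fl 1, 2, 3 or 5 and 2 without control 5. That many genes were called in post-tamoxifen cells and few in labeled cells is therefore not a tested difference for most of them. The list medians ran in the same direction in labeled cells for effector Treg genes (0.57, and 0.52 in ex-Foxp3 cells) and for naive genes (-0.51 and -0.48). Single genes differed in this respect. In labeled cells the genotypes did not overlap at Pydc3, Nnt, Maf, Bach2, Icos, Tigit, Batf, Tnfrsf1b, Foxp1, Smc4, Baz1a and Sesn1, among others. They did overlap there at Gbp1, Gbp2, Gbp3, Il1r2, Rilpl2, Lef1 and Tet3, among others. In ex-Foxp3 cells they did not overlap at Nnt, Maf, Bach2, Icos, Foxp1, Smc4, Baz1a and Sesn1, but did at Pydc3, Tigit, Batf and Tnfrsf1b.

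**Figure D5:**
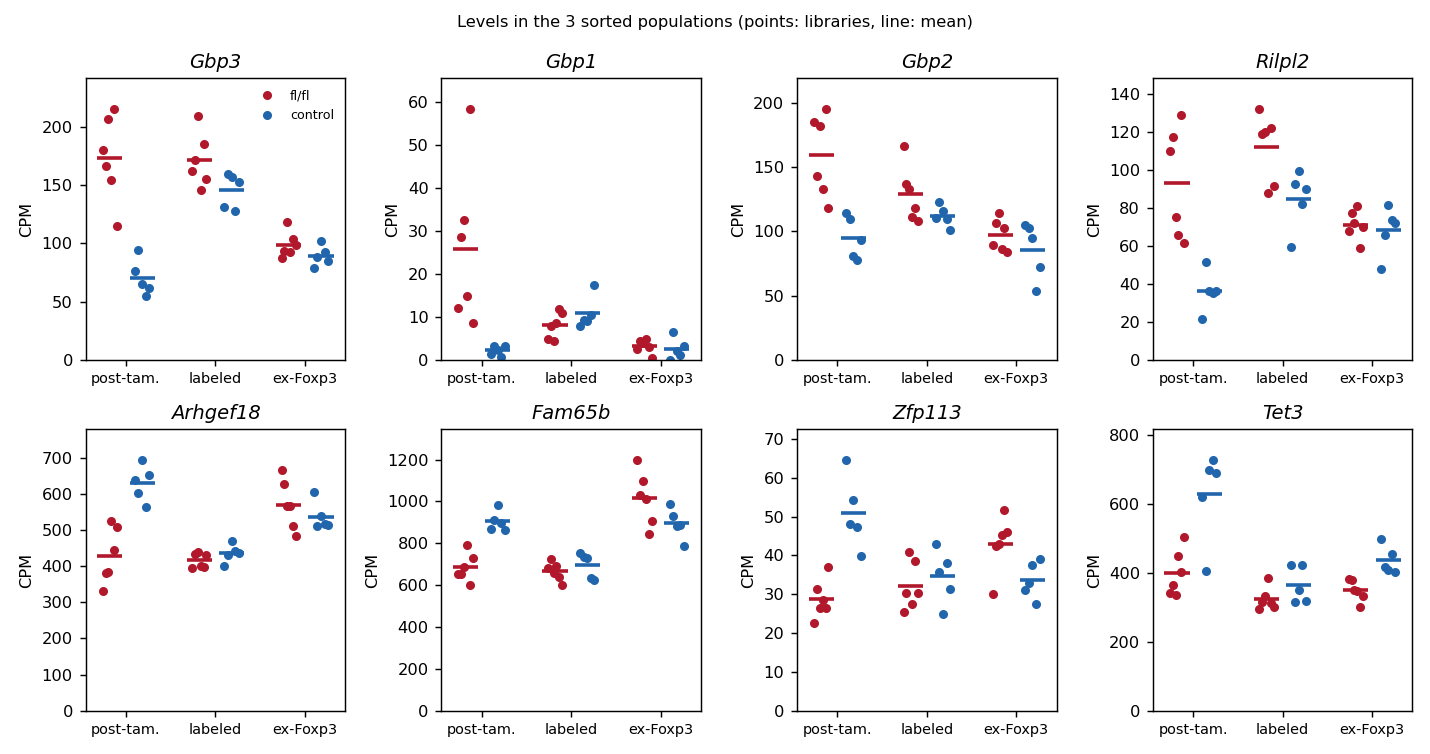
CPM by library (points) with the mean (line) of 8 genes in post-tamoxifen, labeled and ex-Foxp3 cells, fl/fl in red on the left and control in blue on the right of each pair. At Gbp3 the control post-tamoxifen libraries, at 54.6 to 94.0 CPM, lie below the fl/fl post-tamoxifen libraries and below labeled cells of both genotypes, and overlap ex-Foxp3 cells of both.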

How the data were processed

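RNA came from sorted cells and was made into libraries with the AllPrep DNA/RNA Micro kit and the SMARTer Stranded Total RNA-Seq Kit v2, per the labels' protocols. The authors deposited raw read counts per gene for 19434 genes. The submitters' processing notes name bcl2fastq 2.17.1.14, TopHat2 2.1.0 and the mm10 (GRCm38) build; the counting tool, strand setting and annotation release are not given in the sources used here. Total counts per library were 781437 to 3153563.

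Groups came from genotype and sort gate in the labels, and library numbers are the replicate numbers. Counts of the 33 pulse-chase libraries in 6 groups were fitted with edgeR 4.0.16 (TMM scaling, filterByExpr, robust quasi-likelihood test; R 4.3.3, limma 3.58.1), with Benjamini-Hochberg adjustment over 9921 genes and a threshold of 0.05. Differences between genotype effects were contrasts of that fit, which held no term for the mouse or the library number. The sorted populations share these numbers. If a number marks the same mouse, the tests treated its libraries as independent. With a block on the number, the genotype effect differed at 2 genes against labeled cells and at 17 against ex-Foxp3 cells. Errors of log2 fold changes are standard errors. Sums over gene lists are CPM of the total count. DESeq2 1.42.0, other scaling and filters, fewer libraries and a replicate block were tried. The procedure was also run on simulated counts drawn independently for each library around group means. Those counts held no effect of mouse, library number or other cells, so the run cannot show how the procedure behaves with them. Python 3.11.15 read RefSeq promoters.

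Named genes were Uhrf1, Foxp3, the DNA methylation genes, the 12 largest called changes in each direction above a mean log2 CPM of 4, and in each list the 4 called members with the lowest p and the 2 uncalled members of highest level, and the largest changes of each difference of effects; the text gives a part of them, and some genes are not reported here. Members, lists and tests were chosen with earlier results of these data known. The series design calls the libraries biological replicates, without saying what a shared number means. Every pair of replicates differed by more than counting noise (chi-square over its degrees of freedom at least 2.866).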

Additional observations from a re-analysis of the deposited data

Results flagged for a closer look

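Some libraries lay far from the others of their group at single genes. Of 226 groups of values examined, 11 held such a library, which is about the share of 1 in 20 that chance gives, and 7 of the 11 were control 2. In the fl/fl group, library 1 was far above the others at Igj (478 CPM) and Itgae (386 CPM), and library 3 at the summed myeloid markers (2094 CPM). Control 2 was far above the other controls at Icos (154 CPM), Il1rl1 (62.5 CPM), Itgb1 (1709 CPM), Nrp1 (545 CPM), Pydc3 (182 CPM) and Sh2d1a (50.1 CPM), and far below them at Znrf3 (38.1 CPM). Control 1 stood out at Pold1 (49.5 CPM).

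The effect of genotype differed between sorted populations at 6 genes by edgeR's test of the difference. The log2 fold change in post-tamoxifen cells minus that in labeled cells was 3.83 for Gbp1 and 1.06 for Gbp3. The difference from ex-Foxp3 cells was 1.15 for Gbp3, 1.24 for Rilpl2, -0.64 for Arhgef18, -0.58 for Fam65b and -1.14 for Zfp113.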

How the results depend on the processing

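The count of 717 genes stayed within 1.5 times under RLE scaling (728), no low-count filter (543), a minimum of 1 CPM in 5 libraries (654), DESeq2 (975) and without both low-Foxp3 libraries (626). It was 147 with only the groups compared, and 451 without the Y-bearing controls, which left out numbers 2 and 3 of the controls in every sorted population. It was 1325 within numbers 1 to 3, 209 within numbers 4 and above, and 390 to 1147 with 1 library left out. Same-numbered libraries deviated together only in part (correlations 0.237, -0.056, -0.082, 0.243 and 0.083), so the numbers were not taken as pairs. With the replicate block 1650 of 9921 genes were called (16.6%), all 717 among them, and 911 of the 1650 were higher. That fit called 49 of 54 G2/M, 27 of 51 S phase and 41 of 44 histone genes higher. Without control 2 the count of 907 became 1641 with the block, 1122 by DESeq2 and 359 with the groups alone.

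Differences of genotype effect from labeled cells were called at 2 genes, at 1 with only the groups compared or without the Y-bearing controls, at 14 without both low-Foxp3 libraries, at 0 and 4 within numbers 1 to 3 and 4 and above, and at 0 to 16 with 1 library left out. From ex-Foxp3 cells it was 5 genes, 1 with the 1 CPM minimum, only the groups compared or without the Y-bearing controls, 17 with the block, 24 without both low-Foxp3 libraries, 58 within numbers 1 to 3, 21 by DESeq2, and 1 to 36 with 1 library left out. The causes were not tested.

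Of 88 called genes among 107 examined one by one, 57 kept their call without any 1 library. The 1 CPM minimum ended the calls of Irs2 (adjusted p = 0.0544), Sesn1 (0.0551) and Tacc3 (0.0518). Reversed signs, none of them called, were Foxp3 at 0.022 within numbers 4 and above, 0.018 without control 3 and 0.039 without fl/fl 3 (range -0.36 to 0.039 with 1 library left out), and Igj at -1.93 and Tcf7 at 0.0019 within numbers 4 and above. Low-count genes had wide errors at these depths, which cover 1 sort of cells per library.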
